A study of Mus musculus with 10 samples.

Results

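The 7 Ugt2b genes described here, Ugt2b34, Ugt2b38, Ugt2b5, Ugt2b36, Ugt2b35, Ugt2b37 and Ugt2b1, encode UDP-glucuronosyltransferases of the 2B subfamily and were taken from the 54838 genes listed for each library. They were chosen because Ugt2b34 and Ugt2b38 were higher in Arid3a cKO crypts in these same libraries, so their cKO and WT values are given as a description and carry no test. The libraries hold polyadenylated RNA of crypts of the jejunum, 5 from WT and 5 from Arid3a cKO animals, and each comes from a separate mouse. The cKO animals were VillinCre-ERT2+/-; Arid3a fl/fl, and both genotypes were injected with tamoxifen on 3 consecutive days and culled 1 month after the first injection. The labels give neither the age of the animals nor the alleles of the WT group. The Villin promoter restricts the tamoxifen-activated Cre to the intestinal epithelium, so other cells of a crypt preparation keep Arid3a, and the villi had been scraped off before the crypts were released.

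UDP-glucuronosyltransferases are membrane enzymes of the endoplasmic reticulum that transfer glucuronic acid from UDP-glucuronic acid to small lipophilic molecules, which makes them water soluble and ready for export. The 2B subfamily is known for steroid hormones, bile acids, fatty acids and drugs as substrates, and the 1A family for bilirubin and phenols. Liver is the best known site of both, and the enterocytes of the small intestine also carry them, where they act on compounds taken up from the lumen.

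In GRCm38 the 7 genes span 534 kb of chromosome 5, from 86889767 to 87424203, with 6 on the minus strand and Ugt2b35 on the plus strand. Each has 6 exons in its coding transcript and 1587 to 1596 coding bases. The 120 bases directly before the RefSeq start (GRCm38.p6) are shown for Ugt2b34, the most abundant member, and for Ugt2b5, Ugt2b37 and Ugt2b38, whose starts hold a long run of the same bases while their levels differ widely. Capitals mark the longest run that these 3 members share.
Ugt2b34: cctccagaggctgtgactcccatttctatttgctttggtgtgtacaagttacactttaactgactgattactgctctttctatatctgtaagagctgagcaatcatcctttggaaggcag
Ugt2b5: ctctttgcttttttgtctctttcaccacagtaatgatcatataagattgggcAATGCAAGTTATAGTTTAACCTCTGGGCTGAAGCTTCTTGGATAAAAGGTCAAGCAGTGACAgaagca
Ugt2b37: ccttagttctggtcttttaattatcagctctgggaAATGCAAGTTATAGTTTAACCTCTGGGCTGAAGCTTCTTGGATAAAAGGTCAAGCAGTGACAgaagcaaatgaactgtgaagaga
Ugt2b38: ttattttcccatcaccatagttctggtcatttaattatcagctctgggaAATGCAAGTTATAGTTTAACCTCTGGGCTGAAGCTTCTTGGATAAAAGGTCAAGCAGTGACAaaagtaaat
The printed stretches lie on the minus strand, at chr5:86906938-86907057 for Ugt2b34, chr5:87140341-87140460 for Ugt2b5, chr5:87254789-87254908 for Ugt2b37 and chr5:87424204-87424323 for Ugt2b38.

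The shared run is 62 bases long and begins 68 bases before the RefSeq start in Ugt2b5, 71 in Ugt2b38 and 85 in Ugt2b37. These distances depend on the annotation. The RefSeq start of Ugt2b37 lies inside its GENCODE gene, which ends at 87254804, and that of Ugt2b5 outside its gene, which ends at 87140318. Over the 250 bases before the start, Ugt2b38 was identical to Ugt2b37 at 84.8% of aligned positions and to Ugt2b5 at 80.0%, and Ugt2b5 to Ugt2b37 at 70.4%, while Ugt2b34 matched the other members at 39.9% to 45.8%. Windows from 250 bases before to 50 bases after a start were searched on both strands for short motifs. A motif of ARID3A, ATTAAA, was present without mismatch in the windows of Ugt2b38, Ugt2b5 and Ugt2b37 and in 13.9% of 32851 RefSeq promoters. The CDX2 motif TTTATG was present without mismatch in Ugt2b1 alone and in 11.9% of promoters. The TATA box TATAAA and the HNF4 motif CAAAGTCCA were in no member without mismatch, and in 13.6% and 0.475% of promoters. The members are copies of each other and are not independent cases of a motif. A or T made up 56.0% to 68.8% of the 250 bases before the start in the members, against a median of 47.6% over all promoters, and motifs of A and T meet such sequence more often. Such matches are letters in a window and were not tested as binding sites.

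The coding sequences divide the members by similarity. Ugt2b38 and Ugt2b5 were identical at 97.0% of aligned coding bases, and Ugt2b37 matched Ugt2b5 at 94.7% and Ugt2b38 at 94.1%. Ugt2b36 and Ugt2b35 matched each other at 88.3% and these 3 genes at 85.9% to 88.4%. Ugt2b34 and Ugt2b1 stood apart, each at 70.7% to 74.5% identity to every other member and nearest to each other. This bears on the counts, because the quantification divides a read that fits several genes among them. Of the 100-base windows of the transcripts, 100% for Ugt2b36, Ugt2b35 and Ugt2b1, 99.7% for Ugt2b34 and 98.9% for Ugt2b37 occurred in no other annotated gene. For Ugt2b38 and Ugt2b5 this share was 75.8% and 75.3%, and 24.2% of the windows of Ugt2b38 were also found in Ugt2b5. The values of these 2 genes are therefore uncertain as to how their shared reads were split, and they are also given below as a pair.

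The 10 libraries held 27050455 to 28152743 expected counts in WT and 28314069 to 31053622 in cKO, so the totals of the genotypes did not overlap. Levels are in CPM, the expected counts scaled to library sizes adjusted by TMM, as mean ± SD over 5 animals. WT libraries held 1.91 to 2.75 CPM of Arid3a, the deleted gene, and cKO libraries 0.303 to 1.17 CPM, without overlap. The names of the WT animals and those of the cKO animals share no stem, and the labels do not say what a stem stands for or whether the animals were littermates. In such bulk samples fewer cells of a type and less RNA per cell cannot be told apart.

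The filter on low counts was passed by 5 of the 7 members, and all 5 were past an adjusted p of 0.05 in edgeR's quasi-likelihood test, higher in cKO, where 15.6% of the 14719 genes tested were called higher and 28.3% in either direction. Since the members were picked on this contrast, nothing is read from that count. In the same 5 genes every cKO library lay above every WT library, which held for 12.0% of all genes tested, while the opposite order held for 7.63%. The median log2 fold change of the 5 was 0.93, against -0.03 over all genes tested. For the same reason nothing is read from this order of the libraries or from this median. With library size alone in place of TMM the median of all genes was -0.16 and 27.7% instead of 55.1% of all calls were higher in cKO, while the 5 members kept their direction.

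**Figure D1:**
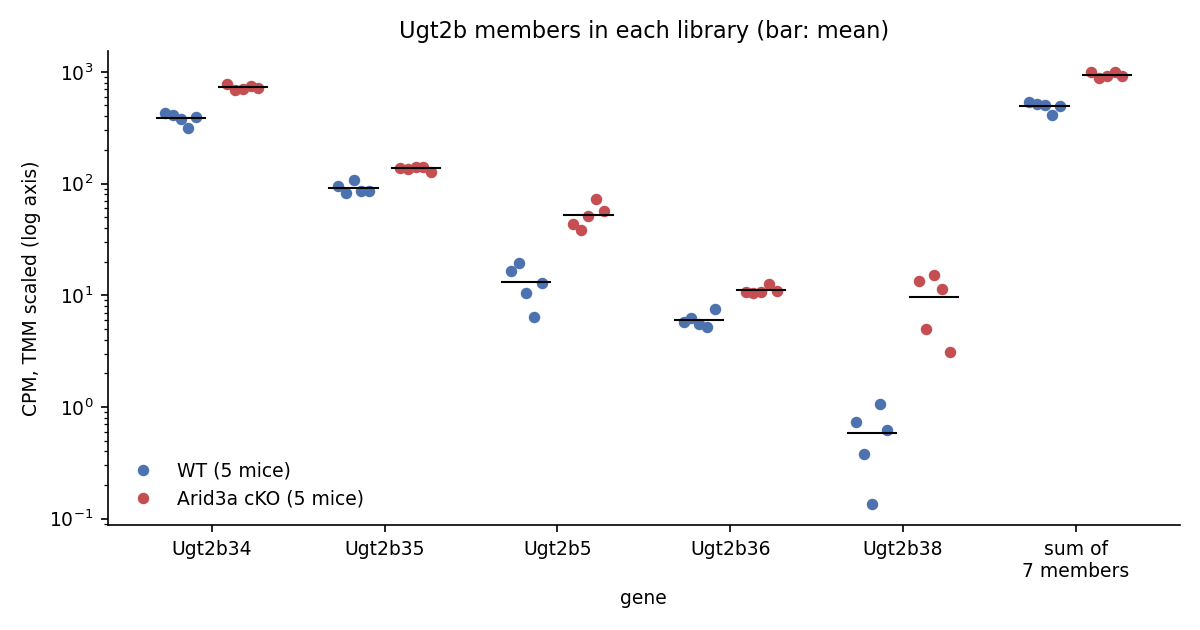
CPM on a log axis of the 5 members that passed the filter and of the sum of the 7 members, with 1 point per library, WT in blue and Arid3a cKO in red, and a bar at the mean of 5 animals. In each column the lowest red point lies above the highest blue point, and Ugt2b38 shows the widest scatter, from 0.136 to 1.07 CPM in WT and from 3.10 to 15.1 CPM in cKO.

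Ugt2b34 was the most abundant member and carried most of the summed signal. It was at 424, 410, 378, 314 and 391 CPM in WT replicates 1 to 5 and at 781, 684, 705, 752 and 724 CPM in cKO replicates 1 to 5. The lowest cKO animal lay well above the highest WT animal, and WT replicate 4 was the lowest of all. The means were 383 ± 42.8 in WT and 729 ± 38.3 in cKO (n = 5 each), which is 1.90-fold, or 0.93 ± 0.08 (SE) as a log2 fold change.

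Ugt2b35, the member on the plus strand, is an abundant gene whose count was whole in all 10 libraries, within 0.005 of a count. Its levels were 94.8, 81.6, 108, 85.9 and 85.9 CPM in WT and 138, 134, 141, 142 and 127 CPM in cKO. Relative to their level, the groups stood apart by less than for the other tested members, with means of 91.2 ± 10.5 and 136 ± 6.04 CPM. Its log2 fold change of 0.58 ± 0.08 (SE) was the smallest of the 5.

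Ugt2b36 was a low but steady member. It measured 5.71, 6.20, 5.50, 5.16 and 7.46 CPM in WT and 10.7, 10.4, 10.6, 12.7 and 10.9 CPM in cKO. The other cKO animals lay close together, with cKO replicate 4 above them, and the log2 fold change was 0.88 ± 0.11 (SE).

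Ugt2b5 varied more between animals of the same genotype. It stood at 16.3, 19.3, 10.4, 6.43 and 13 CPM in WT and at 43.7, 38.7, 51.4, 72.2 and 57.3 CPM in cKO. The means of 13.1 and 52.7 CPM give a log2 fold change of 2.01 ± 0.28 (SE), or 4.03-fold. WT replicate 4, lowest for Ugt2b34, was also lowest for Ugt2b5, and cKO replicate 4 was highest for Ugt2b5.

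Ugt2b38 was near the limit of detection in WT crypts, with 4.23 to 31.6 expected counts per library, and had 81.9 to 431 in cKO. WT replicate 3 was under the filter's minimum count of 10, so Ugt2b38 would not have passed on its WT libraries alone. In CPM it was at 0.731, 0.379, 0.136, 1.07 and 0.618 in WT and at 13.4, 5.01, 15.1, 11.4 and 3.10 in cKO. Among the cKO animals, replicates 1, 3 and 4 were high and replicates 2 and 5 low, and all lay above the WT animals. The log2 fold change was 4.02 ± 0.57 (SE), or 16.2-fold, the largest and least precise of the members.

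The other 2 members did not pass the filter. Ugt2b1 had 0 to 6 expected counts in every library of both genotypes, and Ugt2b37 had 0 to 1.02, at or under the 3 counts that a count of 0 allows. No fold is given for either. Ugt2b37 was this low although 98.9% of its windows were its own and its 250 bases before the start were 84.8% identical to those of Ugt2b38, the closest pair of promoters among the members.

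Taken as a pair, Ugt2b5 and Ugt2b38 summed to between 7.5 and 19.6 CPM in WT, against 43.8 to 83.6 CPM in cKO. The ratio of the means was 4.55, which does not depend on how reads were divided between the 2 genes. Within the pair, Ugt2b38 took 1.29% to 14.3% in WT and 5.14% to 23.5% in cKO, and these ranges overlap. The larger part of the pair's difference was thus counted as Ugt2b5.

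Summed over the 7 members, expression was 412 to 542 CPM in WT and 872 to 990 CPM in cKO. The means were 494 ± 49.0 and 939 ± 49.8 CPM, a log2 fold change of 0.93 ± 0.08 (SE). Without Ugt2b34 it was 0.92 and without Ugt2b38 0.91, so this fold change did not rest on either gene alone. Most of the summed level came from Ugt2b34.

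Per transcript length, in TPM, Ugt2b34 was at 147 to 191 in WT and 269 to 327 in cKO, and made up 76.5% ± 1.19 of the TPM of the 7 members in WT and 74.5% ± 1.97 in cKO. Ugt2b35 came next with 31.1 to 43.4 TPM in WT and 46.0 to 55.9 in cKO. Ugt2b5 followed with 5.08 to 13.6 TPM in WT, which overlapped the 4.72 to 5.67 TPM of Ugt2b36. In cKO Ugt2b5 reached 25.6 to 52.7 TPM, overlapping Ugt2b35, though it lay below Ugt2b35 in each of the 5 libraries. Ugt2b38 was at 0.10 to 0.82 TPM in WT, below Ugt2b36 in every library, and at 2.03 to 9.99 TPM in cKO, where it overlapped the 7.58 to 10.4 TPM of Ugt2b36. The share of Ugt2b5 was 4.30% ± 1.35 in WT and 8.99% ± 1.88 in cKO, and that of Ugt2b35 16.7% ± 2.32 and 12.7% ± 0.672, both without overlap between the genotypes.

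**Figure D2:**
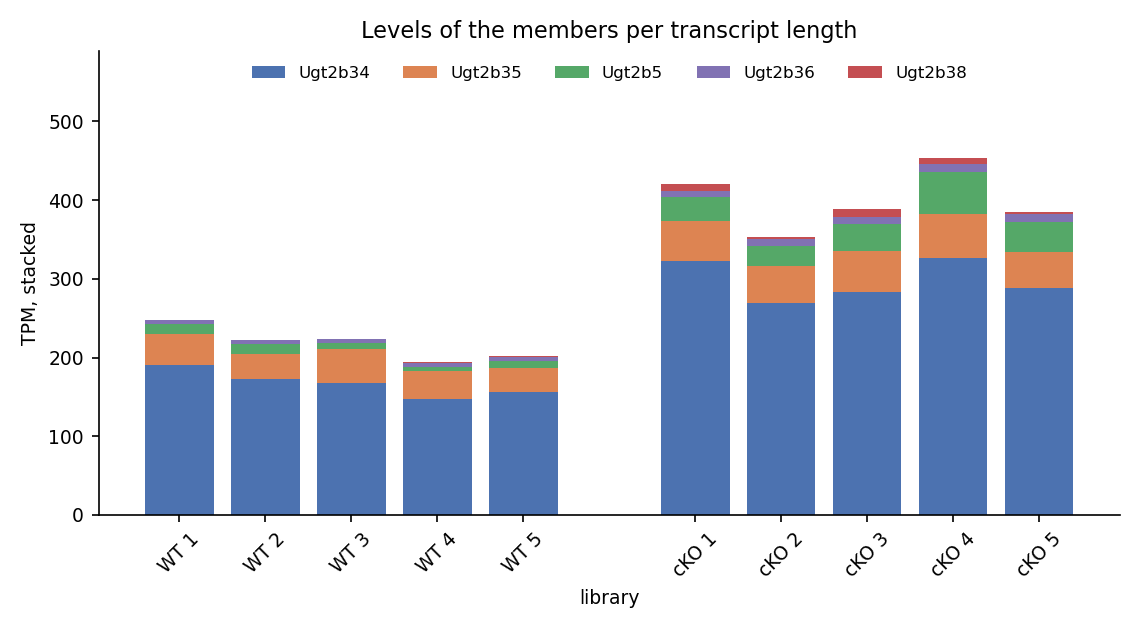
TPM of the 5 detected members, stacked for each WT and Arid3a cKO library, with 1 bar per animal on an axis from 0. Ugt2b34 fills most of each bar, and the sum runs from 195 to 248 TPM in WT and from 354 to 454 TPM in cKO.

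Animals of the same genotype differed by member. The coefficient of variation of CPM was 11.2% in WT and 5.26% in cKO for Ugt2b34, 11.5% and 4.43% for Ugt2b35, and 14.9% and 8.31% for Ugt2b36. It was 38.2% and 24.7% for Ugt2b5 and 60.4% and 54.9% for Ugt2b38. After each genotype was centred on its own mean log2 CPM, Ugt2b34 and Ugt2b5 had a Pearson r of 0.82 and a Spearman rho of 0.75 over the 10 libraries, and r was 0.56 without the 2 animals farthest from the median of Ugt2b34. Centred Ugt2b38 had r of -0.03 with Ugt2b34 and -0.10 with Ugt2b5, and centred Ugt2b35 had 0.12 and -0.09. Each of these 4 values changed sign without the 2 farthest animals, to 0.34, 0.25, -0.28 and 0.49, so no direction is read from them. These values describe 10 libraries that share their scaling, and carry no test.

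Among 11951 other genes whose mean reached 50 normalized counts, the centred pattern of the sum was most like that of Gm28959, Ap1s3, Sppl3, Snx25 and Otop3, with r of 0.95 to 0.96 over 10 libraries. Ap1s3, Snx25 and Gm28959 were also the nearest to Ugt2b34, with r of 0.96 to 0.97. Ugt2b5 was nearest to Ces2c, a carboxylesterase, Pink1, a mitochondrial kinase, and Cyp2c55, a cytochrome P450, each with r of 0.96. Ugt2b38 was nearest to Akp3, an intestinal alkaline phosphatase, Zfp821 and Atp2b1, a plasma membrane calcium pump, with r of 0.89 to 0.91. With so many genes and so few libraries, high values are found for any pattern.

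Of the 15 other Ugt genes listed, 5 passed the filter and 4 rose in cKO crypts in edgeR's quasi-likelihood test. Ugt2a3, which lies inside the span of the Ugt2b genes and shares 0.595% of its 100-base windows with Ugt2b34, rose from 42.4 ± 11.2 to 111 ± 13.8 CPM, a log2 fold change of 1.39 ± 0.17 (SE, adjusted p = 0.000693). Ugt1a9 rose from 10.1 ± 1.84 to 23.0 ± 4.93 CPM (adjusted p = 0.000799), Ugt1a7c by 0.85 ± 0.12 on the log2 scale (adjusted p = 0.000981), and Ugt1a1, the enzyme of bilirubin conjugation, by 0.80 ± 0.17 (adjusted p = 0.00620). Ugt1a6a had 74.8 ± 13.2 CPM in WT crypts and 74.0 ± 13.2 in those of cKO animals (adjusted p = 0.949). The Ugt1a genes overlap and share their last exons, so reads in these exons were divided among them and their single values are uncertain.

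Within 500 kb of the cluster, 52 genes that are no members are annotated, and 6 of them passed the filter. Sult1b1 and Sult1d1, cytosolic sulfotransferases, lie beyond Ugt2b38 and rose in the edgeR fit. Sult1b1 went from 89.4 ± 33.9 to 238 ± 30.8 CPM (adjusted p = 0.00282) and Sult1d1 from 113 ± 23.8 to 284 ± 33.8 CPM (adjusted p = 0.000378), with log2 fold changes of 1.41 ± 0.23 and 1.34 ± 0.14 (SE). Ythdc1, a reader of methylated RNA on the other side of the cluster, was at 88.2 ± 4.12 and 89.2 ± 5.87 CPM (adjusted p = 0.867), and its fitted difference of 0.02 turned to -0.11 when library size alone was used. Ugt2a3 is described above. The processed pseudogene Gm35570 rose by 1.70 ± 0.48 on the log2 scale from 0.317 to 1.04 CPM (adjusted p = 0.0199), which was lost without cKO replicate 5, and Gm18635 was at 0.441 and 0.721 CPM (adjusted p = 0.0832). The span itself holds 15 annotated pseudogenes, of which 9 had at most 3 counts in every library.

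**Figure D3:**
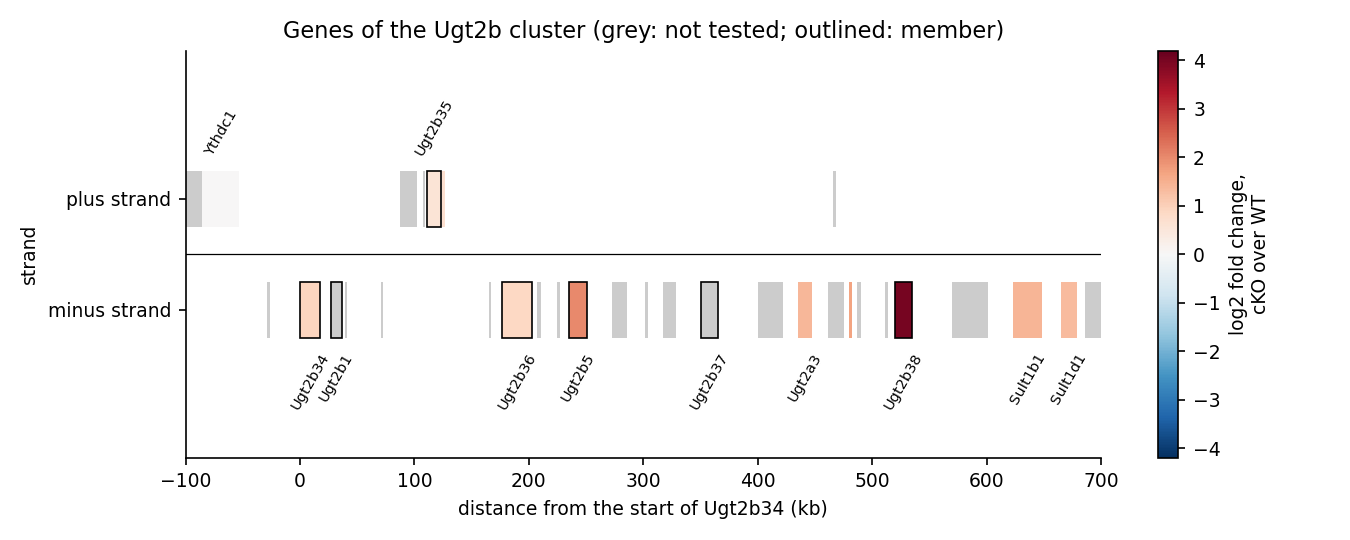
Genes around the cluster by distance in kb from the start of Ugt2b34, on the plus strand above the line and the minus strand below it, coloured by the log2 fold change of cKO over WT. Members are outlined and untested genes grey. Ugt2b38 has the deepest colour at 4.02, Ugt2b1 and Ugt2b37 are grey between coloured members, and Ythdc1 is almost white at 0.02.

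**Figure D4:**
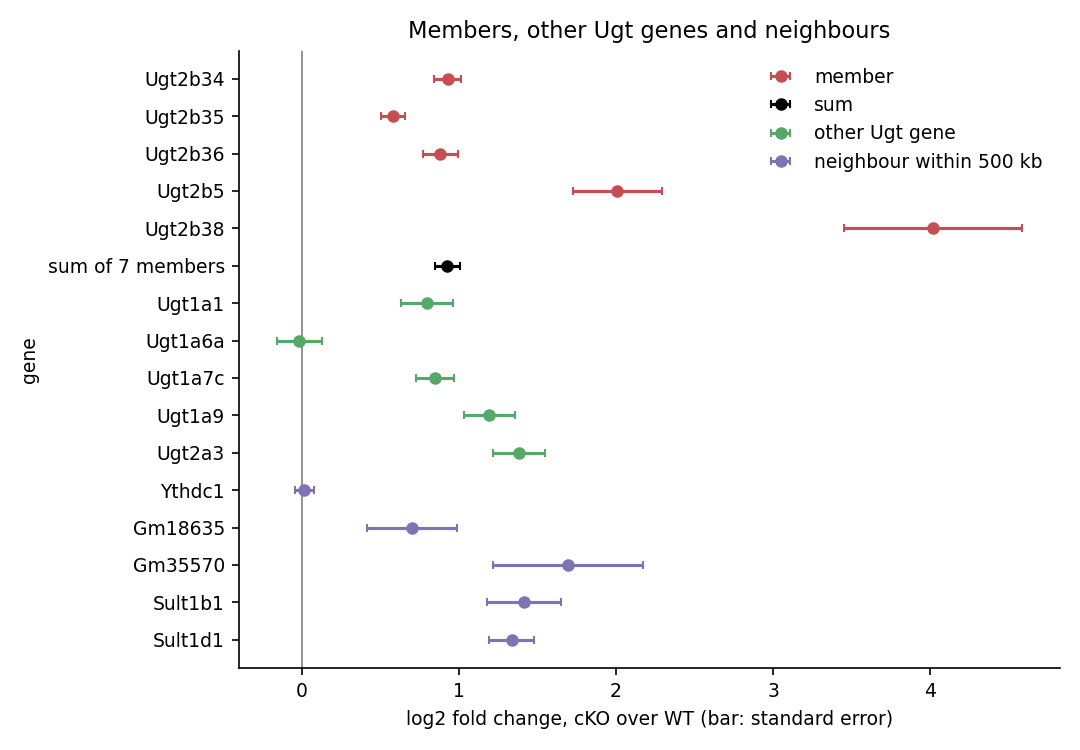
Log2 fold change of cKO over WT with its standard error for the 5 tested members and the sum of the 7, the other tested Ugt genes and the tested neighbours within 500 kb. All 5 members lie to the right of 0, from 0.58 for Ugt2b35 to 4.02 for Ugt2b38, while Ugt1a6a and Ythdc1 lie at 0 within their errors.

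Genes around glucuronidation were counted in lists, against the 15.6% of all genes called higher and the 12.7% called lower in cKO. The lists, including the other Ugt genes above and the cell types below, were chosen with earlier results of these data known. Their counts are therefore a description. Of 14 genes listed around the supply of UDP-glucuronic acid, not all of which make or carry it, 6 rose and 3 fell. Ugdh, the enzyme that makes UDP-glucuronic acid from UDP-glucose, rose from 136 ± 32.2 to 322 ± 31.8 CPM, a log2 fold change of 1.25 ± 0.15 (SE, edgeR adjusted p = 0.000637). Entpd5, a nucleotidase of the endoplasmic reticulum, rose by 1.17, the nucleotide sugar transporter Slc35d2 by 0.84 and Pgm1, a phosphoglucomutase, by 0.51. Hk2, a hexokinase, fell by 0.52, Entpd4 fell by 0.28 and Slc35b4 fell by 0.20, and the calls of Entpd4 and Slc35b4 were lost on leaving out any animal but WT replicate 2.

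Of 8 efflux transporters listed, not all of them known exporters of glucuronides, 3 rose. These were Abcc2 by 1.49, Abcb1a by 1.23 and Abcg2 by 0.57 on the log2 scale. Abcc2, the apical exporter of conjugates, went from 74.8 ± 31.4 to 210.5 ± 35.5 CPM (edgeR adjusted p = 0.00471). Abcc1, a basolateral exporter, fell by 0.40 (adjusted p = 0.0445), and this was lost in limma-voom, with the length offset and without 8 of the 10 animals in turn. Of 2 glucuronidases listed, Gusb, a lysosomal enzyme, fell by 0.28 (edgeR adjusted p = 0.0261). This call was lost with the length offset and on leaving out replicate 4 or 5 of either genotype.

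Of 14 genes of the parallel sulfation route, 9 were tested and 5 rose, a count of 3 when WT replicate 3 or WT replicate 5, or cKO replicate 1, 4 or 5, was left out. Papss2, which makes the sulfate donor, rose by 1.67 and Sult2b1, a sulfotransferase of sterols, by 1.31, a call lost on leaving out any of these animals and without a filter on low counts. Of 17 genes of steroid and retinoid substrates, 16 were tested and 13 rose, with the largest changes in Hsd17b6 at 1.84, Cyp2j6 at 1.48, and Rdh7 at 1.39, followed by Akr1c19, which went from 79.3 ± 19.5 to 176 ± 25.1 CPM. The summed level of this list was 791 to 1231 CPM in WT and 1560 to 2093 CPM in cKO.

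Of 26 known or candidate regulators of Ugt genes, 25 were tested, 8 rose and 3 fell. Maf rose by 1.44, Nr1i3 (CAR) by 1.07, Hnf4g by 1.05 and Nr1i2 (PXR) by 0.66 on the log2 scale. Foxa3 fell by 0.48, Foxa1 fell by 0.44 and Foxa2 fell by 0.35, the last call being lost in limma-voom, without a filter, with the length offset and without 8 of the 10 animals in turn. The count of 8 was 5 without cKO replicate 5. Hnf4a, a nuclear receptor of liver and gut epithelium, was at 1151 ± 68.2 and 1040 ± 44.3 CPM (edgeR adjusted p = 0.120).

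Markers of cell types moved with genotype in the same libraries. All 20 enterocyte markers tested rose, at a median of 1.55 on the log2 scale, and their summed level was 3527 to 13183 CPM in WT and 15264 to 27184 CPM in cKO. The count was 12 without cKO replicate 5 and 12 without a filter on low counts. The sum of the members had a smaller log2 fold change than 18 of these 20 markers, Ugt2b35 a smaller one than all 20, Ugt2b5 a larger one than 19 and Ugt2b38 a larger one than all 20. Relative to the summed enterocyte markers, the members' sum was 3.92% to 11.7% in WT and 3.39% to 6.05% in cKO, and these ranges overlap. For Ugt2b5 the ratio was 0.146% to 0.199% in WT and 0.193% to 0.337% in cKO, and for Ugt2b38 0.00260% to 0.0304% and 0.0114% to 0.0987%, which also overlap.

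After centring, the mean of the enterocyte markers had r of 0.82 with Ugt2b34, 0.88 with Ugt2b5 and 0.48 with Ugt2b36 over the 10 libraries. With Ugt2b35 and with Ugt2b38 r was -0.31. Without the 2 animals farthest from the median of the member, r was 0.63, 0.67, 0.90, 0.28 and -0.46 in the same order. Within WT alone r was 0.90 for Ugt2b34 and 0.99 for Ugt2b5, and within cKO alone 0.44 and 0.50. The part of enterocyte content in the members' differences was not tested.

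Of the stem cell markers 4 of 6 fell, a count of 1 when WT replicate 3 or WT replicate 4, or cKO replicate 1, 3 or 5, was left out. Of the Paneth cell markers 7 of 8 fell. Of the other lists, 4 of 8 villus tip, 4 of 8 enteroendocrine and 4 of 7 tested tuft cell markers rose, while 1 of 8 goblet, 1 of 10 immune and 2 of 9 tested stromal cell markers fell. Several of these counts moved with single animals. The enteroendocrine count was 2 on leaving out WT replicate 3 or cKO replicate 4, and the tuft cell count was 1 or 2 on leaving out WT replicate 3, WT replicate 4 or any cKO animal but replicate 5. The immune count was 2 on leaving out WT replicate 2, cKO replicate 4 or cKO replicate 5. The stromal count was 5 on leaving out cKO replicate 4, and 1 on leaving out any other cKO animal or WT replicate 3, 4 or 5. In the goblet cell list 1 marker was higher on leaving out WT replicate 5. Of 10 hepatocyte markers, which would mark liver as another source of Ugt2b RNA, 5 were tested and 0 were past the threshold in edgeR. Ahsg, Fga, Fgb and Serpina3k had at most 3 counts in every library, and Alb was at 0.885 and 1.17 CPM in WT and cKO. Apoh was at 1.00 and 0.898 CPM, Cyp2e1 at 11.8 and 12.9 CPM and Ttr at 16.5 and 19.3 CPM. The summed level of the list came mostly from Cps1, at 3534 and 3021 CPM, which intestinal epithelium also expresses. A liver source was not tested.

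**Figure D5:**
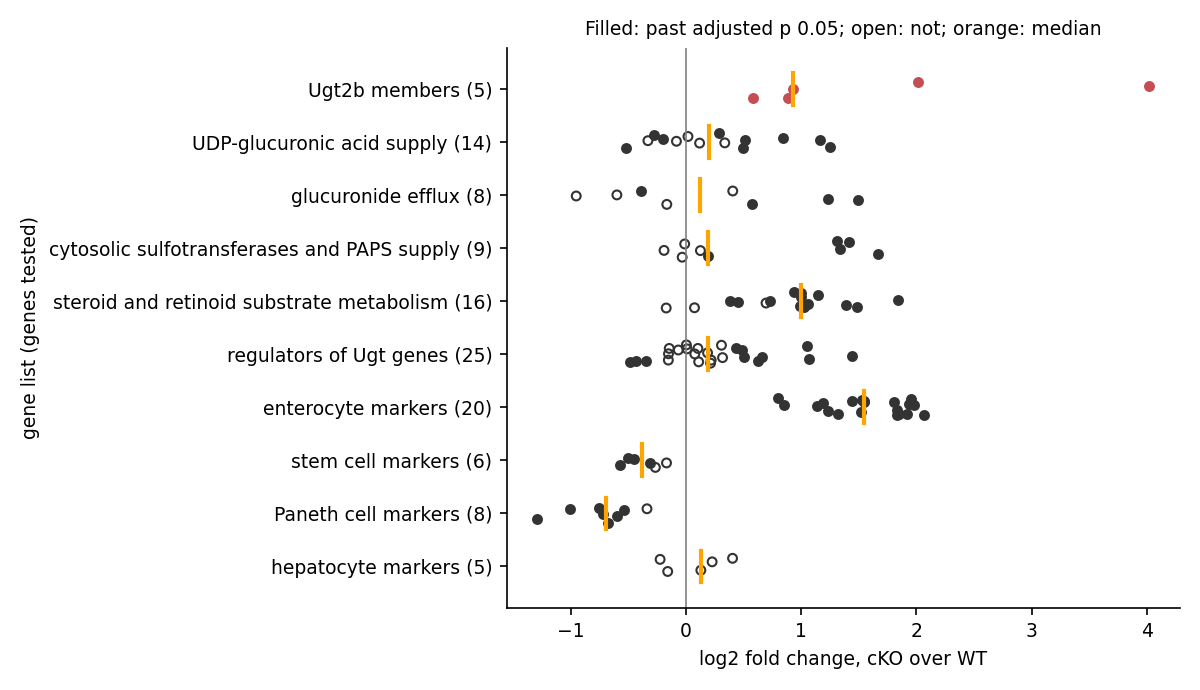
Log2 fold changes of cKO over WT for the tested genes of the members and of 9 lists, with 1 point per gene, filled where past an adjusted p of 0.05 and open where not, and the median in orange. The 20 enterocyte markers lie at 0.80 to 2.06, and their median of 1.55 is to the right of 3 of the 5 members, while the 5 hepatocyte markers are open points near 0.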

How the data were processed

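Libraries of polyadenylated RNA were analysed from 5 WT and 5 Arid3a cKO animals, grouped by their labels. The authors used the nf-core/rnaseq pipeline (version 3.0), STAR and RSEM against release 95 of Ensembl GRCm38, and deposited, for each library, expected counts, TPM, FPKM, length and effective length of each gene, unfiltered. RSEM divides reads that fit several genes among them. The strand setting was not given in the sources used here. The deposited expected counts were not normalized between libraries, whereas the deposited TPM and FPKM are scaled to length and depth, so TPM was used only for levels between members and FPKM only as an alternative. Lengths exceeded effective lengths by 98.0 to 98.6 bases, so 100-base windows were taken as the main size.

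Expected counts were rounded and tested in R 4.3.3 with edgeR 4.0.16 (filterByExpr with a minimum count of 10 and minimum total of 15, TMM, robust quasi-likelihood test, Benjamini-Hochberg adjustment over all 14719 genes, threshold 0.05). The sum of the members was fitted in place of the members. Log2 CPM used a pseudocount of 0.5. The members and lists were chosen with earlier results of these data known. Named genes were Arid3a, the members, every other tested Ugt gene, tested genes within 500 kb, up to 4 genes per direction past the threshold in each pathway list, marker genes, and the genes most alike in centred pattern.

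Gene positions came from GENCODE M21 on GRCm38, which named 54809 of the 54838 genes, and promoters from RefSeq. Identity of coding bases stood in for identity of proteins, for which no sequence was used. Alternatives were DESeq2 1.42.0, limma-voom (limma 3.58.1), RLE, library size only, other filters, unrounded counts, a length offset, a replicate block, other windows and motif limits, and leaving out each animal. Library totals were 27050455 to 31053622 counts, and floors of 3 counts cover counting error only. Some items of the design are not reported here. Only the edgeR fit was tested on simulated counts.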

Additional observations from a re-analysis of the deposited data

Results flagged for a closer look

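Among the members, their sum, the other tested Ugt genes and the tested neighbours, 32 groups of 5 animals were examined for a value that stands far from the rest, and chance marks about 1 in 20 such groups. The only value found was Ugt2b36 in cKO replicate 4, at 12.7 CPM, where the nearest other cKO animal was at 10.9 CPM. Without this animal the log2 fold change of Ugt2b36 was 0.83 in place of 0.88.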

How the results depend on the processing

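The edgeR fit called 5 members higher, where 15.6% of all genes tested were called higher. The number was 5 with each animal left out, and 4 with at least 10 counts in every library, where Ugt2b38 was not tested. Since the members were picked on this contrast, nothing is read from these counts. The log2 fold change of the sum, 0.93, was 0.80 with library size alone, 2.19 for Ugt2b5 and Ugt2b38 alone, an alternative chosen after seeing the data, and 0.87 to 0.96 with 1 animal left out. Leaving out 1 animal gave 3007 to 4684 calls over all genes, 1760 to 2572 higher and 1131 to 2112 lower, and 35 to 42 higher and 3 to 9 lower genes of the pathway lists, where the full fit gave 4167, 2298, 1869, 39 and 8. Near the cluster 3 to 5 genes were higher and 0 lower. Calls over all genes in either direction, and lower calls over all genes, were fewest without WT replicate 4. Lower genes of the pathway lists were fewest, at 3, without WT replicate 4, WT replicate 5 or cKO replicate 5. Higher calls over all genes, in the pathway lists and near the cluster were fewest without cKO replicate 5. Lower calls over all genes were 4030 with library size alone, and lower genes of the pathway lists were 14 with library size alone, 5 with limma-voom, 5 without a filter and 3 with the length offset. The cause was not tested. Leaving out 1 animal moved Ugt1a6a, near 0, between -0.103 and 0.0716 and Ythdc1 between -0.026 and 0.055, and Ythdc1 was -0.11 with library size alone.

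With the replicate number as a block, lower calls over all genes were 1191 and lower genes of the pathway lists 3, and the sum was 0.93. Same-numbered animals had correlations of -0.157 to 0.131, which cannot show whether the numbers stand for a pairing. No replicate correlated best with its own number.

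The share of windows in no other gene fell with shorter windows, to 62.6% for Ugt2b38 at 50 bases, 69.6% and 58.3% for Ugt2b5 at 75 and 50 bases, and 93.6% and 81.7% for Ugt2b37. Counts of members with a motif rose with 1 more mismatch, by construction, to 7 for ATTAAA, 7 for the TATA box TATAAA and 6 for the CDX2 motif TTTATG, which 71.1%, 69.8% and 80.4% of all promoters then hold. For the HNF4 motif CAAAGTCCA they were 2 with 1 mismatch, 0 with none and 6 with 2, against 8.47%, 0.475% and 58.6% of all promoters. Depth limits Ugt2b38 in WT, Ugt2b1 and Ugt2b37.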
